A study of Mus musculus with 3 samples.

Results

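The high mobility group (HMG) genes described here are 8 named genes of 3 families of small chromatin proteins: Hmgn1, Hmgn2 and Hmgn3, then Hmgb1, Hmgb2 and Hmgb3, then Hmga1 and Hmga2. They were taken by gene symbol, and 16 of the 41174 probes of the array carry one of these symbols, among 27745 gene names in all. The set was chosen by a measured value: Hmgn3 mRNA was lower after Eif4g3 siRNA in the top and light fractions, and its relatives were added for comparison. The values of Hmgn3 against control are therefore given as a description.

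The samples were cultured lymph node stromal cells (LNSCs) of BALB/c mice, 1 pool of 7 plates transfected with 400 pmol of control siRNA and 1 pool of 7 plates transfected with 400 pmol of Eif4g3 siRNA. Eif4g3 encodes a translation initiation scaffold that helps to load ribosomes on capped mRNA, so its knockdown was read in mRNA sorted by ribosome load. Medium was changed at 24 h, cells were lysed at 48 h, and lysates were spun through a sucrose gradient of 10% to 60% that was pooled into top, light and heavy fractions. Each fraction gave 1 array, with the RNA of Eif4g3 siRNA cells in the red dye (Cy5) and that of control cells in the green dye (Cy3). There was no second culture and no dye swap, so dye and siRNA cannot be told apart, no test was possible, and every error below is the scanner software's error of a single spot, combined over a gene's probes. That error belongs to the software's own log ratio. It is set beside the ratios computed here as a guide only, since they are normalized otherwise.

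HMG proteins bind DNA or nucleosomes with little sequence preference and change how compact chromatin is. HMGN proteins bind inside the nucleosome, HMGB proteins carry HMG-box domains that bend DNA, and HMGA proteins hold AT-hook motifs that lie in the minor groove of AT-rich DNA. HMGB1 also acts outside the cell as an alarm signal, and HMGA2 is best known from embryonic and proliferating mesenchymal cells.

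The arrays measured 10934 genes in the top fraction, 14093 in light and 14397 in heavy polysomes, where measured means well above background in both channels. Eif4g3 itself had log2 ratios of siRNA over control of -0.43 in the top, -1.06 in light and -1.77 in heavy polysomes, each over 2 probes. The upper quartile of the raw signal differed between arrays and dyes, for example 64.9 for control RNA of the top fraction and 676 for siRNA RNA of light polysomes, and 0 spots were saturated. All 9 markers of fibroblastic stroma, including Col1a1, Pdgfrb and Pdpn, were measured on all 3 arrays, whereas the endothelial genes Pecam1 and Cdh5, the leukocyte gene Ptprc and the epithelial gene Epcam were on none. In mixed RNA of this kind, fewer cells of a type and less RNA per cell cannot be told apart.

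All 8 HMG genes were measured in every fraction, through 12 of their 16 probes in the top, 14 in light and 14 in heavy polysomes. Hmgn3 stood apart from its relatives in each fraction. At 2-fold, 1 of 8 HMG genes was lower after Eif4g3 siRNA in the top fraction, where 0.265% of all genes were, and 1 of 8 in the light fraction, against 0.291% of all genes. The gene was Hmgn3 both times. Since the set was chosen by its fall in these fractions, both counts follow from that choice and show no excess among HMG genes. In the heavy fraction 0 of 8 were lower at 2-fold, against 0.306% of all genes. None of the 8 was higher at 2-fold, against 0.43% of all genes in the top, 0.397% in light and 0.507% in heavy polysomes.

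Hmgn3 encodes a nucleosome-binding protein that is made in fewer tissues than HMGN1 and HMGN2. The gene was probed at 2 neighbouring sites, centred 555 bases apart on the minus strand of chromosome 9 (mm8), at chr9:82906905-82906964 for A_52_P32369 and chr9:82907460-82907519 for A_51_P422183; exon and UTR annotation of that build was not used here. The bright probe A_52_P32369 had a processed signal of 3856 in control and 1274 in Eif4g3 siRNA RNA of the top fraction, 10296 and 2874 in light, and 3633 and 1573 in heavy polysomes. Control was above siRNA on each of the 3 arrays.

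The log2 ratios of A_52_P32369 were -1.34 ± 0.25 in the top, -1.84 ± 0.27 in light and -1.27 ± 0.23 in heavy polysomes. The dim probe A_51_P422183 was not well above background in either channel of the top fraction and gave no ratio there. It read 178 in control and 33.2 in siRNA RNA of the light fraction, and 125 and 50.8 in the heavy fraction, with log2 ratios of -1.03 ± 0.32 and -0.57 ± 0.26. Both probes thus read below 0 on both polysome arrays. With the offset of 50 the dim probe was the nearer of them to 0, but the order turned with the software's own ratios. These software ratios, to which the errors belong, were -2.42 for the dim and -1.84 for the bright probe in light, and -1.30 and -1.21 in heavy polysomes.

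**Figure D1:**
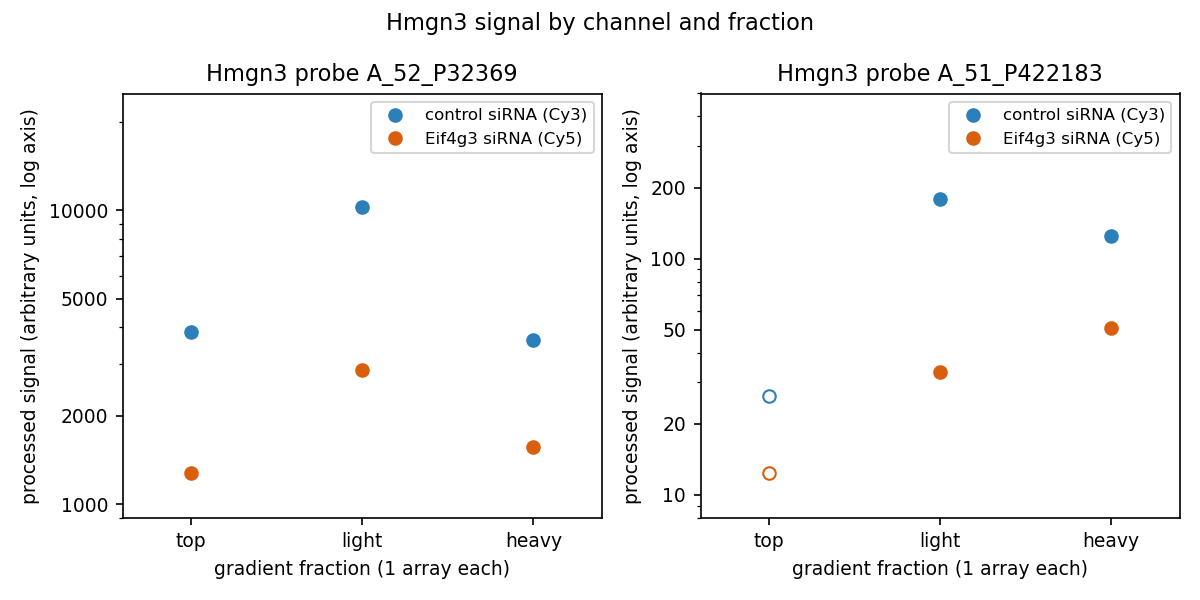
Processed signal (arbitrary units, log axis) of the 2 Hmgn3 probes in the top, light and heavy fractions, 1 array each, in control siRNA RNA (blue) and Eif4g3 siRNA RNA (orange); open circles are spots not well above background. For the bright probe, control lies above siRNA in every fraction, at 3856 against 1274, 10296 against 2874 and 3633 against 1573.

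As a gene, Hmgn3 had a log2 ratio of -1.34 ± 0.25 over 1 probe in the top, -1.44 ± 0.21 over 2 probes in light and -0.92 ± 0.17 over 2 probes in heavy polysomes. These are levels 2.53, 2.70 and 1.89 times lower after Eif4g3 siRNA. Counted from the lowest ratio, Hmgn3 ranked 3 of 10934 genes in the top, 3 of 14093 in light and 75 of 14397 in heavy polysomes. Of the 10650 genes measured on all 3 arrays, 2 were lower at 2-fold on each of them, and Hmgn3 was not one of these. A level of -0.9, set after the heavy value of Hmgn3 was seen, was passed on each array by 4 genes, Hmgn3 among them, and 0 other genes lay at or below Hmgn3 on every array. With every probe kept, dim ones included, the top value was -0.68, since the dim probe then counted in the mean.

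Hmgn1 and Hmgn2 encode the closest relatives of HMGN3 and are made in most cells. The probe of Hmgn1 that was measured (chr16:96226797-96226856, minus strand, mm8 as for all probes) read 68057 in control and 76888 in siRNA RNA of the top fraction, 87882 and 91461 in light, and 41037 and 59535 in heavy polysomes. The probe of Hmgn2 (chr4:133237127-133237186, minus strand) read 18187 and 19313, 43842 and 45245, and 23070 and 34545 in the same order. Both genes were a little brighter in siRNA RNA on every array, the opposite order to Hmgn3.

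The log2 ratios of Hmgn1 were 0.31 ± 0.20 in the top, 0.08 ± 0.20 in light and 0.54 ± 0.21 in heavy polysomes. Those of Hmgn2 were 0.12 ± 0.20, 0.10 ± 0.20 and 0.57 ± 0.21. Only the heavy values of both and the top value of Hmgn1 exceeded their spot error. Hmgn5, listed on the array as Nsbp1 and not among the 8, is an HMGN gene on the X chromosome with ratios of 0.40 ± 0.15, -0.17 ± 0.15 and -0.23 ± 0.15. Its 2 probes, 829 bases apart, differed in sign: in the light fraction one read 0.32 and the other -0.67, and in the heavy fraction 0.05 and -0.51. No HMGN gene other than Hmgn3 was past 2-fold in any fraction.

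Hmgb1 is the most abundant HMG-box gene of many cells and was read by 3 probes in the top and 4 in the polysome fractions. Its brightest probe, A_52_P117821, read 89205 in control and 70645 in siRNA RNA of the top fraction, 70416 and 59627 in light, and 62066 and 59885 in heavy polysomes. Its gene ratios were -0.22 ± 0.12 in the top, 0.06 ± 0.10 in light and -0.11 ± 0.10 in heavy polysomes. The probes spread from -0.31 to -0.13 in the top, from -0.20 to 0.40 in light and from -0.35 to 0.06 in heavy polysomes. In the polysome fractions the probes lay on both sides of 0, and in the top fraction all 3 were below 0. The sign of the small light and heavy ratios changed when only the brightest probe was used (-0.20 and 0.06). Hmgb1, like Hmgn1 and Hmgn2, has processed copies elsewhere in the genome, so its probes may take up signal of such copies and their values are uncertain to that extent.

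Hmgb2, a relative of Hmgb1 linked to dividing cells, was read by 2 probes whose centres lie 1064 bases apart on chromosome 8. Its brighter probe (chr8:60406335-60406394, plus strand) read 17251 in control and 18971 in siRNA RNA of the top fraction, 31420 and 38581 in light, and 26849 and 39252 in heavy polysomes. Both probes were brighter in siRNA RNA on all 3 arrays. The gene ratios were 0.21 ± 0.15, 0.24 ± 0.15 and 0.62 ± 0.15, and in the heavy fraction the probes read 0.56 and 0.68. Hmgb3, another HMG-box relative, was read by 1 probe on the X chromosome (chrX:67820885-67820944, plus strand), with signals of 889 in control and 812 in siRNA RNA of the top fraction, 3019 and 3187 in light, and 3071 and 3255 in heavy polysomes. Its ratios were -0.12 ± 0.21, 0.04 ± 0.20 and 0.00 ± 0.20, all within the spot error.

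Hmga1, which encodes an AT-hook protein, was read by 1 probe (chr17:27291187-27291246, plus strand). Its processed signal was 632040 in control and 479198 in siRNA RNA of the top fraction, 212409 and 178134 in light, and 157381 and 176724 in heavy polysomes. Control was the higher channel in the top and light fractions and siRNA in heavy polysomes. After loess its log2 ratios were 0.12 ± 0.21 in the top, -0.15 ± 0.21 in light and 0.26 ± 0.20 in heavy polysomes, with only the heavy value beyond its spot error. With the software's ratio, the top value was -0.40, so its sign there depends on the normalization.

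Hmga2, the second AT-hook gene, was read by 2 probes 931 bases apart on chromosome 10, and another probe was not well above background on any array. Its brighter probe (chr10:119764743-119764802, minus strand) read 8395 in control and 10545 in siRNA RNA of the top fraction, 28902 and 40656 in light, and 25797 and 42887 in heavy polysomes. The siRNA channel was the higher one each time, by most in the heavy fraction. The gene ratios were 0.11 ± 0.15, 0.47 ± 0.15 and 0.70 ± 0.15, and the last, 1.62-fold, was the highest ratio of any HMG gene on any array.

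**Figure D2:**
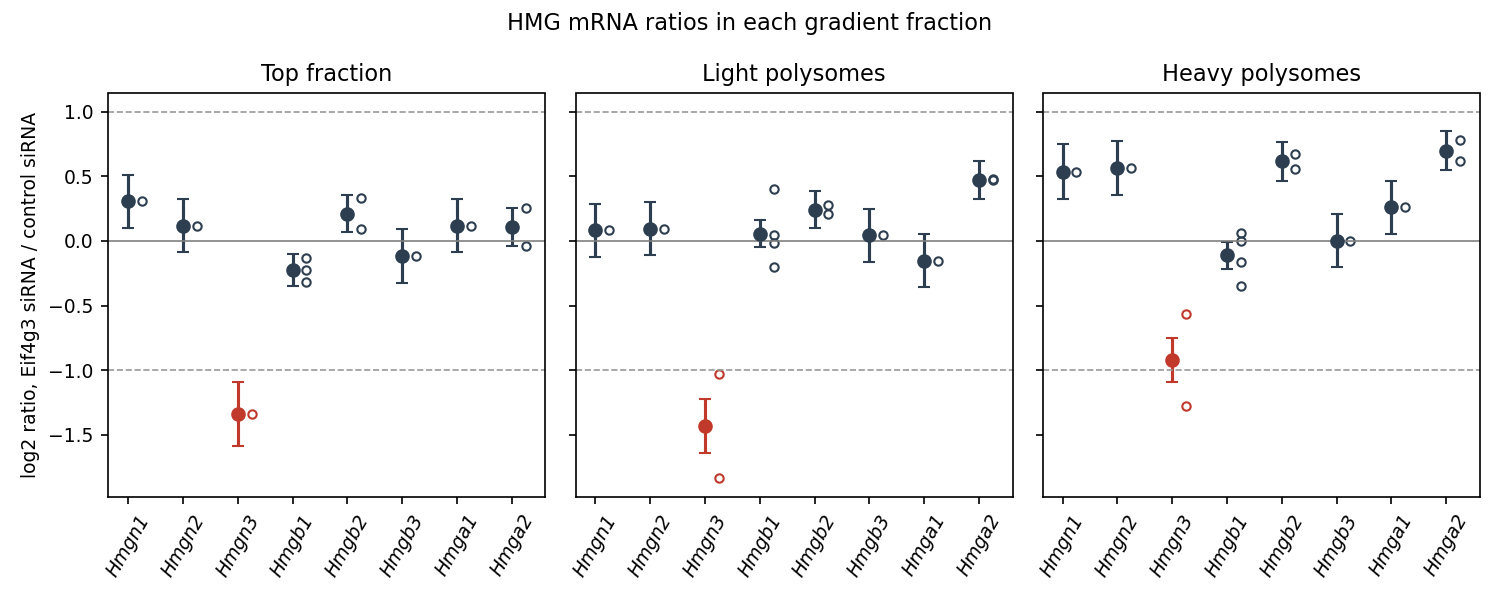
Log2 ratio of siRNA over control (y axis) for the 8 HMG genes in the top, light and heavy fractions, 1 array each; filled points are genes with the scanner software's spot error, open points are single probes, and dashed lines mark 2-fold. Hmgn3 (red) is lowest in every fraction, at -1.34, -1.44 and -0.92, and Hmga2 is highest in the light and heavy fractions, at 0.47 and 0.70; without loess the ratios of all 8 move up in the light and down in the heavy fraction.

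Set beside one another, the other 7 HMG genes had a median log2 ratio of 0.12 in the top, 0.08 in light and 0.54 in heavy polysomes, where the medians of all genes were 0.00, 0.02 and -0.01. Hmgn3 lay below the median of those 7 by a log2 difference of -1.46, -1.52 and -1.46 in that order. In the heavy fraction 4 of the 7, Hmgn1, Hmgn2, Hmgb2 and Hmga2, had ratios of at least 0.5, as did 5.24% of all genes; in the top and light fractions 0 of 7 did, against 3.96% and 5.43%. The level of 0.5 was set after these values were seen.

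These directions depend on how each array is scaled. Without loess, each array was instead centred on the median of all its non-control spots, dim ones included. The median of all measured genes was then 0.62 in light and -0.73 in heavy polysomes. Of the relatives of Hmgn3, 7 of 7 were above 0 in light and 0 of 7 in heavy polysomes, counts that rest on that zero point as well. Relative to the median of all measured genes, Hmgn3 was at -1.35 in the top, -1.49 in light and -0.88 in heavy polysomes. In the heavy fraction 5 of the 7 relatives were above that median. Their median then lay 0.46 above that of all genes in the heavy fraction, against 0.55 with loess. In the light fraction the same difference was 0.51 without and 0.07 with loess.

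**Figure D3:**
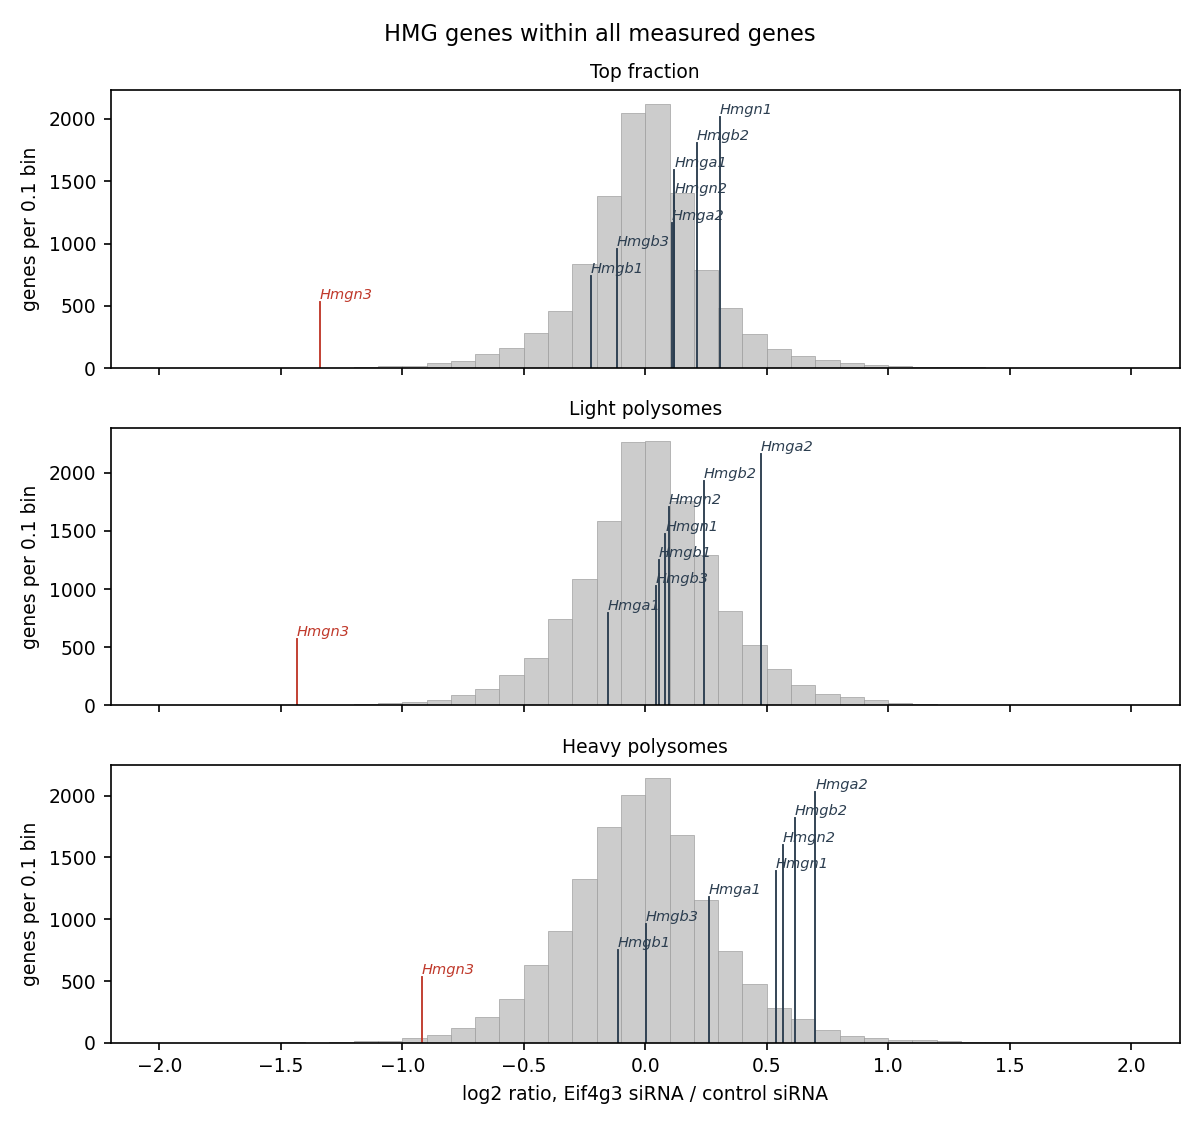
Number of genes per bin of 0.1 in the log2 ratio of siRNA over control (grey bars), for all measured genes of the top, light and heavy fractions, with a line at each HMG gene. Hmgn3 (red) lies in the lower tail on each array, whereas in the heavy fraction Hmgn1, Hmgn2, Hmgb2 and Hmga2 lie between 0.54 and 0.70 in the upper flank; these are values after loess, and without it the heavy ratios of those 4 are below 0 but above the median of all genes.

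The change of the ratio from one fraction to another addresses whether the siRNA moved an mRNA along the gradient. Each difference was taken over the probes measured on both arrays, so for Hmgn3 those with the top fraction rest on the bright probe alone and differ from the differences of its gene ratios. On that probe, Hmgn3 had a heavy minus top difference of log2 ratios of 0.07 ± 0.34 and a light minus top difference of -0.50 ± 0.37. For heavy minus top the software's ratio gave 0.39, beyond the spot error, and keeping dim probes gave -0.24. Over both probes, the heavy minus light difference was 0.51 ± 0.27. The largest heavy minus top difference of the 8 was that of Hmga2, at 0.59 ± 0.21, followed by Hmgn2 at 0.45 ± 0.29 and Hmgb2 at 0.41 ± 0.21. The other differences were 0.23 ± 0.29 for Hmgn1, 0.19 ± 0.17 for Hmgb1, 0.14 ± 0.29 for Hmga1 and 0.12 ± 0.29 for Hmgb3.

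All 8 HMG genes had a heavy minus top difference above 0, as did 49.96% of all genes. Those of Hmgn1, Hmgn3, Hmgb3 and Hmga1 lay within their spot errors. None of the 8 passed 2-fold in any of the 3 differences, against 1.51% of all genes for heavy minus top, 0.731% for heavy minus light and 1.06% for light minus top. Heavy minus light differences were above 0 for 6 of 8, against 47.1% of all genes, the exceptions being Hmgb1 at -0.17 and Hmgb3 at -0.04. Without loess, 6 of 8 heavy minus top differences and 5 of 8 heavy minus light differences lay above the median of all genes, and Hmgn3 lay at -0.06 and 0.75 relative to it.

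Where these mRNAs sit in control cells was read from the control channel, put on 1 scale between arrays. These values compare RNA labelled in equal amounts, so they are relative to the other mRNAs of a fraction. Hmgn3 had a log2 difference of heavy over top of -1.36, from the bright probe alone, and -0.85 for heavy over light over both probes, which read -1.48 and -0.21. With dim probes kept, its heavy over top value was -0.27. At 2-fold, 1 of 8 HMG genes was lower in heavy than in top RNA, namely Hmgn3, against 20.6% of all genes, and 0 of 8 were higher, against 15.4%. With processed signals scaled to the array's 75th percentile in place of this scaling, 5 of 8 were lower, so the count rests on the scaling. The median of all genes also moved, from -0.07 to -0.43. The share of all genes lower under that scaling is not given here, so the 5 of 8 has no background beside it. For heavy over light, 2 of 8 were lower, Hmgn1 at -1.59 and Hmgn2 at -1.04, against 5.06% of all genes, and 0 of 8 were higher, against 3.81%.

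The 3 HMGN genes of the set were thus the 3 lowest of the 8 for heavy over light, under the main scaling and under both other scalings of the control channel. This did not extend to Hmgn5, whose value was 0.04, and Hmg20b, which is no HMGN gene, was at -1.14. Their heavy over light values ranged over these scalings from -1.59 to -1.26 for Hmgn1, from -1.13 to -1.04 for Hmgn2 and from -1.22 to -0.85 for Hmgn3. In the siRNA channel the same differences were -1.13, -0.57 and -0.33.

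Heavy over top, the values were -0.67 for Hmgn1, -0.50 for Hmgn2, -0.53 for Hmgb2, 0.18 for Hmga1, 0.32 for Hmgb3, 0.46 for Hmga2 and 0.72 for Hmgb1. With that percentile scaling, Hmga1 turned to -3.75 and Hmgb1 to -0.18, where the median of all genes was -0.43, whereas Hmgn3 was at -1.83. Probes of one gene also disagreed: those of Hmgb1 read -0.27, 1.17 and 1.27, and those of Hmgb2 0.12 and -1.17. The means of Hmgb1 and Hmgb2 therefore describe neither probe well. The Hmgb1 probe at -0.27 and one of those above 1 were listed by the scanner files at nearly the same place, with centres 2 bases apart on chromosome 5, over stretches shorter than the other probes.

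**Figure D4:**
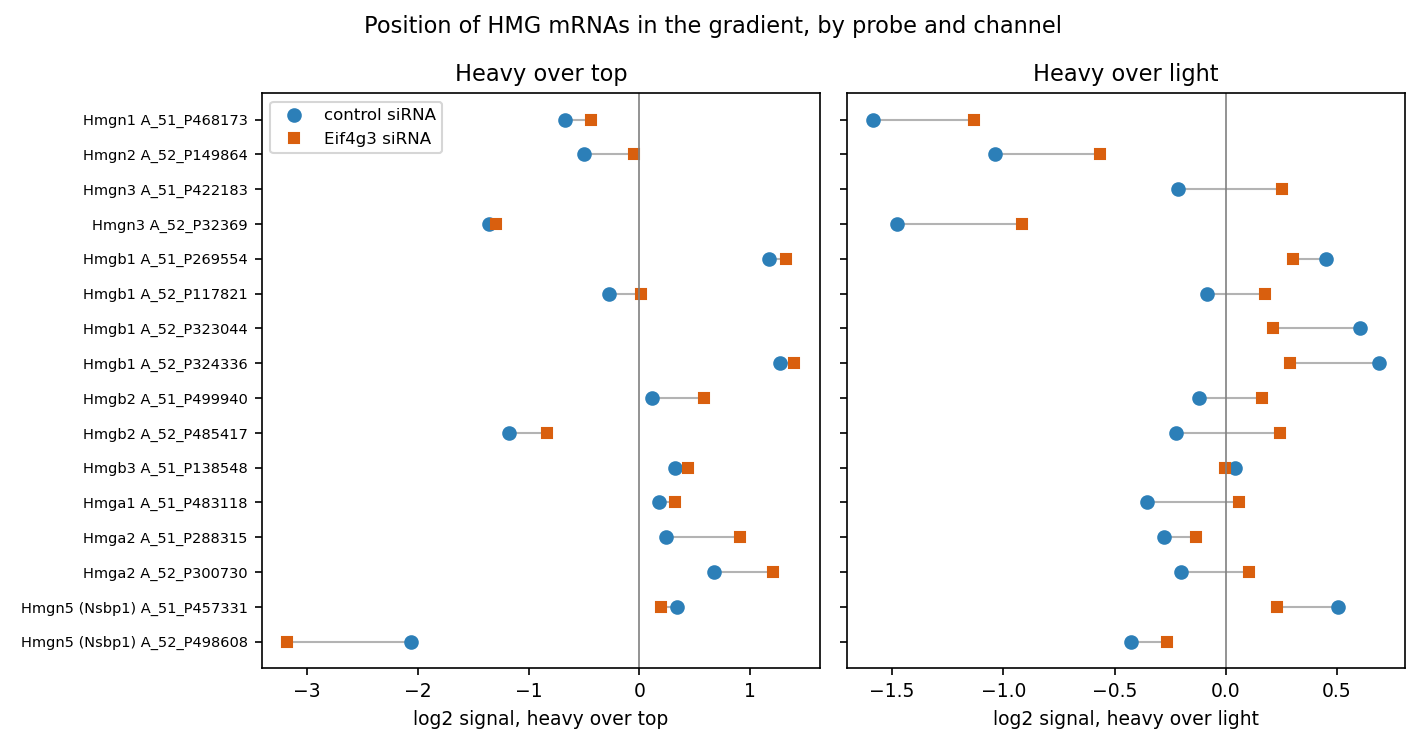
Log2 signal of the heavy fraction over the top fraction (left) and over the light fraction (right) for each measured HMG probe, with Hmgn5 (Nsbp1) added, in control siRNA RNA (blue circles) and Eif4g3 siRNA RNA (orange squares), after loess and scaling between arrays. Hmgn1, Hmgn2 and the bright Hmgn3 probe lie at the left of the heavy over light panel, at -1.59, -1.04 and -1.48 in control RNA, and the siRNA points lie to their right; the side of 0 of Hmga1 and Hmgb1 for heavy over top changes with the scaling.

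Genes whose 3 ratios were nearest to those of Hmgn3 were ranked by the Euclidean distance over the top, light and heavy log2 ratios, among 3829 candidate genes. The nearest was Ctla2a, a cysteine protease inhibitor gene, at a distance of 0.36 with ratios of -1.29, -1.13 and -0.73. Spp1, which encodes osteopontin, followed at 0.50 with ratios of -1.58, -1.03 and -1.08. Next came C1qtnf6 at 0.52, Nnmt, which encodes nicotinamide N-methyltransferase, at 0.56, and Ctla2b, a near copy of Ctla2a whose signal its probe may share, at 0.60. None of the other HMG genes was among them.

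Genes of related chromatin proteins were described from fixed lists for the same 3 arrays, with ratios after loess. Linker histones bind the nucleosome where HMGN and HMGB proteins also act, and all 7 were measured: 0 of 7 were above 0 in the top, 5 of 7 in light and 6 of 7 in heavy polysomes, against 50.4%, 52.6% and 48.3% of all genes. Their medians were -0.14, 0.09 and 0.18. All 7 top ratios lay within their spot errors, the lowest being -0.17 ± 0.20 for H1f5. H1f3 (listed as Hist1h1d) was the highest in the heavy fraction at 0.75 ± 0.16, and H1f5 (Hist1h1b) the lowest at -0.35 ± 0.21. Of the genes with an HMG box or other HMG motif outside the 8, 21 were measured in the top and 28 in each polysome fraction, with medians of 0.06, 0.06 and -0.07. Ssrp1, the HMG-box subunit of the FACT histone chaperone, read 0.82 ± 0.22 in the top and -0.06 ± 0.21 in the heavy fraction, and its partner Supt16 (Supt16h) read 0.12 ± 0.25 and -0.59 ± 0.21. Hmg20b, a subunit of a histone demethylase complex, was highest of its list in the heavy fraction at 0.75 ± 0.22.

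Nucleosome remodelling and histone chaperone genes had medians of 0.03 over 29 genes in the top, -0.05 over 30 in light and -0.13 over 31 in heavy polysomes. In the heavy fraction 11 of 31 were above 0, against 48.3% of all genes. Asf1b, a chaperone of newly made histones, was the lowest of them on all 3 arrays, at -0.62, -0.63 and -0.97. No gene of these 3 lists passed 2-fold on any array, where 0.265% to 0.306% of all genes were lower and 0.397% to 0.507% higher. In the heavy fraction 2 of 9 fibroblastic stromal markers were above 0, against 48.3% of all genes. The median of the 9 was -0.48, while the median of the 7 relatives of Hmgn3 was 0.54. Summed over the 9 markers, the processed signal was 280512 in control and 211341 in siRNA RNA of the top fraction, 420449 and 437959 in light, and 538297 and 400932 in heavy polysomes. Their part in the HMG values was not tested.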

How the data were processed

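Each of 3 two-colour Agilent arrays held 1 gradient fraction. The deposited scanner files give a linear intensity per spot and channel, per the file headers (Agilent Feature Extraction 10.5.1.1), with flags, the software's processed signal and its log10 ratio with an error. The series' value table, deposited by the authors, holds log2 ratios that equalled the software's within 3.53e-06 at measured probes, which fixes its scale and direction; its column medians were -0.09, -0.01 and 0.22. Probe coordinates are mm8, per the file headers.

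Mean signals were background-corrected with normexp (offset 50) and normalized by loess within each array in limma 3.58.1 (R 4.3.3), with control spots at weight 0. Outlier spots (220, 170 and 183) took part in the normalization and were left out when spots were averaged to probes. A gene was the mean of its probes well above background in both channels, by the gene name in the files; past 2-fold means a log2 ratio of at least 1 in size. The control channel was scaled between arrays by Aquantile. Tables were made in Python 3.11.15 with pandas 2.3.3. The named genes were the 8 HMG genes, Eif4g3, the 5 genes nearest Hmgn3 and the lists' extremes; other genes were picked after their values were seen. Members and lists were chosen with earlier results of these data known. The normalization was run on simulated data in which both channels were built from the control signal. These lacked the unequal channel brightness of the light and heavy arrays, so they cannot judge the normalization in that respect. No sequence is printed, and protein and probe sequences were not used here. With 1 array per fraction, the number of arrays limits the precision and no replicate error exists.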

Additional observations from a re-analysis of the deposited data

Results flagged for a closer look

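Hmgn5 (listed as Nsbp1) had a log2 ratio of siRNA over control of 0.40 in the top fraction but -0.17 in light and -0.23 in heavy polysomes, beyond the spot error on each side of 0. Its 2 probes disagreed in sign on both polysome arrays, and the difference between fractions was not tested. Hmgb1-rs17, a gene name for a copy of Hmgb1 on chromosome 8, had a ratio of -0.28 in light and 0.41 in heavy polysomes, a difference that was not tested. Hmga2-ps1, a listed Hmga2 pseudogene on chromosome 1, likewise had -0.33 in light and 0.30 in heavy polysomes, not tested either. Probes of such copies may also take up signal of the parent genes, so their values are uncertain.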

How the results depend on the processing

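Hmgn3 was the lowest of the 8 HMG genes in all 3 fractions under each of the 6 alternatives run. The set was chosen by its fall in the top and light fractions, so its low place there follows from that choice. All 6 alternatives rework the same 3 arrays. In the top fraction the log2 ratio of Hmgn3 was -1.60 with the software's ratio and -0.68 with dim probes kept, which left 0 HMG genes lower at 2-fold. In the light fraction it was -1.86 with no offset, -0.88 without loess, -2.13 with the software's ratio and -1.84 with the brightest probe. Without loess, with each array centred on all its non-control spots, 0 HMG genes were lower and 5 higher at 2-fold there. The median of all measured genes was then 0.62. Relative to that median Hmgn3 lay at -1.49 and Hmga2, the highest of the 8, at 0.78. The share of all genes past 2-fold without loess is not given here. In the heavy fraction Hmgn3 was at -1.12 with no offset, -1.60 without loess, -1.25 with the software's ratio and -1.27 with the brightest probe. Under each of these 4 it was the 1 HMG gene lower at 2-fold. In the same order, 44, 260, 30 and 17 of 14397 genes, Hmgn3 included, lay at or below it. The share of all genes lower at 2-fold under these settings is not given here. Without loess the median of all genes was -0.73 in the heavy fraction. Relative to the median of all genes, Hmgn3 lay at -0.88 without loess and -0.91 with it, short of 2-fold both times. The cause of these changes was not tested. Taking the median over probes moved 0 of 24 ratios beyond the spot error, and no loess moved 16 of 24. Of 16 control-channel values, scaling to the 75th percentile moved 13 and quantile normalization 0. No paired analysis was possible because each fraction has 1 array. The top array was the dimmest, with 34.8% of probes measured against 50.2% in light and 51.6% in heavy polysomes, which limits what can be said of dim probes there.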

Other observations

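Genes around extracellular HMGB1 and around Hmga2 gave the following values. Of 14 genes of Hmgb1 receptors and signalling, 10 were measured in the top, 13 in light and 12 in heavy polysomes, with median log2 ratios of -0.20, -0.01 and -0.05. Sdc1, a heparan sulfate proteoglycan gene, was lowest in the top and light fractions (-0.51 and -0.96), and Thbd, which encodes thrombomodulin, a protein that binds HMGB1, was lowest in the heavy fraction (-0.90). The receptor gene Trem1 was well above background on none of the arrays and Ager on the light one alone, and Tlr4 read -0.16, 0.04 and 0.05.

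Genes linked to Hmga2, either as regulators of its mRNA or, like Cdkn2a, as a locus that HMGA2 acts on, had medians of 0.10 over 6 genes, -0.05 over 7 and -0.29 over 7 in the same order. In the heavy fraction 1 of 7 was above 0, Cdkn2a at 0.43, against 48.3% of all genes. Dicer1, the nuclease that makes mature microRNAs, was lowest at -0.49, whereas Hmga2 itself read 0.70. The mRNA-binding protein genes Igf2bp1, Igf2bp2 and Igf2bp3 read -0.14, -0.31 and -0.44 there, and Lin28a and Lin28b were not well above background on any array. No gene of either list passed 2-fold on any array, where 0.265% to 0.306% of all genes were lower and 0.397% to 0.507% higher.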
